A study of Mus musculus with 24 samples.

Results

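The TRIM family of mouse cortex was followed through its genes named Trim plus a number, with or without a letter. The count table held 67 such genes, of 43346 genes in all. The 58 that had at least 10 raw counts in at least 6 of 24 libraries are described here, and the same 58 were among the 21891 genes in the fit. The other 9 (Trim10, Trim31, Trim38, Trim42, Trim50, Trim52, Trim55, Trim60 and Trim61) reached that count in 0 libraries, or in 1 library for Trim10. Nearest to the limit, Trim69 and Trim58 passed with 6 libraries and Trim63 with 7. Of the 58, 5 reached the limit of 6 libraries on 1 side of the LPS comparison alone. Trim30c, with 12 LPS and 0 unstimulated libraries, Trim30b (12 and 4), Trim40 (10 and 5) and Trim75 (7 and 3) passed through the LPS libraries, and Trim63 (0 and 7) through the unstimulated ones.

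The 24 libraries, each from the cortex of 1 mouse, form 4 groups of 6: mice labelled Abca7 given LPS, control mice given LPS, mice labelled Abca7 with no stimulus, and control mice with no stimulus. LPS (lipopolysaccharide) is a cell-wall component of Gram-negative bacteria, and it sets off innate immune signalling through TLR4, and the design text of the series says that it was injected. Mice labelled Abca7 are described there as heterozygous for the lipid transporter gene Abca7, with no allele named, and the sources used here name no strain, dose, route or time. The mice were 54 to 56 days old in both LPS groups, 55 to 58 days in the unstimulated group labelled Abca7 and 55 to 57 days in the unstimulated controls. The comparisons ask what LPS did to cortical transcripts, and whether the Abca7 label changed that.

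TRIM proteins share a RING finger, 1 or 2 B-boxes and a coiled coil, and most act as ubiquitin ligases. The domain that follows the coiled coil sets their target: a PRY-SPRY domain in most members, NHL repeats, a PHD finger with a bromodomain, or a COS box that binds microtubules. Many PRY-SPRY members are induced by interferon and act in antiviral defence, while others have housekeeping, chromatin or neuronal roles, such as the build-up of the axon.

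Libraries held 48149131 to 75741388 counts, with no difference between groups beyond their spread (exact permutation p = 0.496 for LPS in mice labelled Abca7, 0.617 for LPS in controls, 0.550 for the label under LPS and 0.171 for the label without LPS, n = 6 per group). Abca7 itself was not lower in the mice with its label, at 25.2 to 31.5 CPM (counts per library after scaling all libraries to the same total) in mice labelled Abca7 and 20.6 to 27.1 CPM in controls under LPS, and at 29.9 to 34.8 CPM in mice labelled Abca7 and 26.6 to 32.2 CPM in controls without LPS, so genotype differences are differences between labels. Some libraries lay apart in the LPS-responsive members. Over the 14 members that were higher under LPS with both labels, the LPS library Abca7 replicate 4 had the lowest mean level of its group (2.09 log2 CPM, next 2.21) and was the lowest of its group for 8 of the 14. The LPS library control replicate 2 had the highest mean (2.76 log2 CPM, against 2.41 to 2.58 in the rest of its group) and was the highest for 8 of the 14. The unstimulated library Abca7 replicate 1, from a mouse of 58 days, had the highest mean (1.11 log2 CPM, against 0.28 to 0.74 in the rest of its group) and was the highest for 10 of the 14.

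LPS changed a minority of the family, and more members rose than fell. In mice labelled Abca7, 15 of 58 members rose and 5 fell, against a background of 6.65% higher and 5.18% lower among all genes tested. In controls, 14 rose and 7 fell, against 9.39% higher and 7.92% lower. The median log2 fold change of the members was 0.095 in mice labelled Abca7 and 0.066 in controls, beside medians of 0.0052 and 0.0051 over all genes tested. At an unadjusted p under 0.05, 26 members passed in mice labelled Abca7 (23.5% of all genes) and 25 in controls (29.1%). Both comparisons called the same 14 genes higher and the same 5 lower; Trim14 was called higher with the Abca7 label alone, and Trim65 and Trim63 lower in controls alone. Without the 5 members that passed the limit on 1 side alone, 13 rose and 5 fell in mice labelled Abca7 and 12 rose and 6 fell in controls, of 53, with medians of 0.069 and 0.063. Among called members, the 2-fold mark was passed upwards by 10 members in mice labelled Abca7 (2.32% of all genes tested) and by 12 in controls (2.86%). Every LPS library lay above every unstimulated library for 13 members in mice labelled Abca7 (3.49% of all genes) and for 14 in controls (5.38%), and every LPS library lay below for 2 members (2.24% of all genes) and 3 members (3.69%). Without the same 5, 8 and 10 members passed the 2-fold mark upwards, and 11 and 12 lay wholly above.

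**Figure D1:**
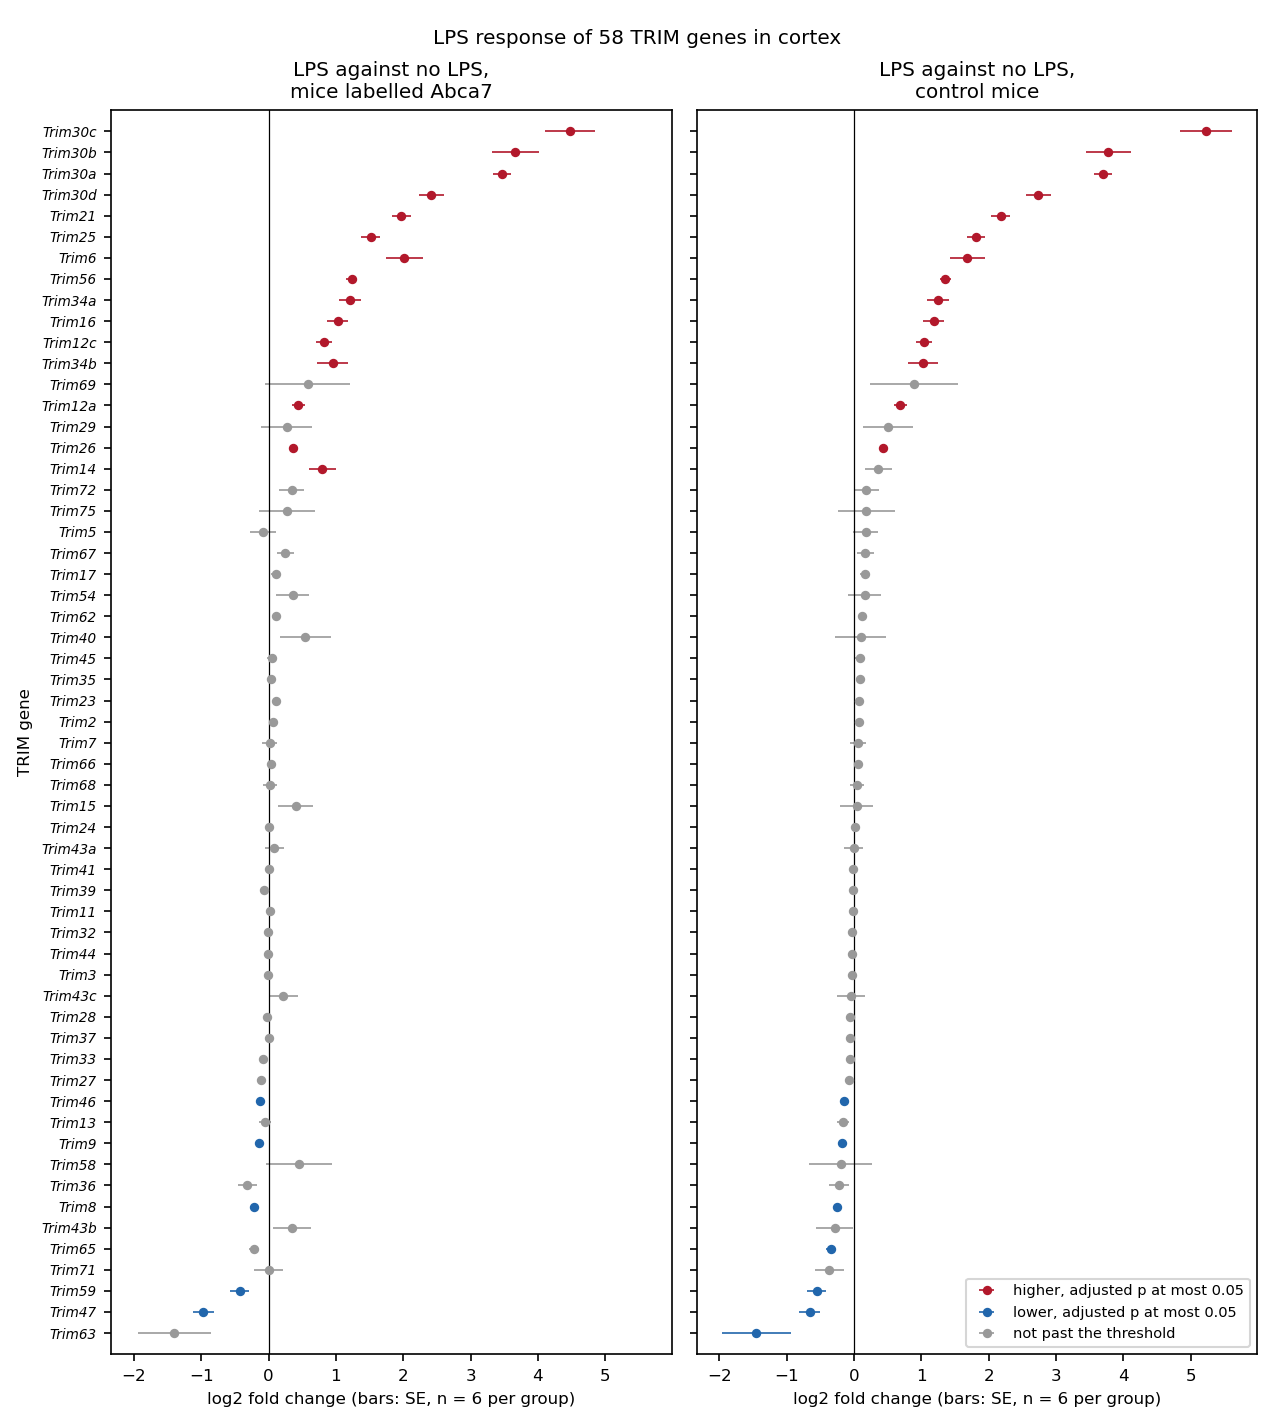
Log2 fold change of LPS against no LPS for 58 TRIM genes in mice labelled Abca7 and in control mice, with bars of 1 SE (n = 6 per group) and the genes ordered by their value in controls. The points past the adjusted p threshold of 0.05 on the right are led by Trim30c, Trim30b, Trim30a and Trim30d; most members sit close to 0.

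In whole cortex, fewer cells of a type and less RNA per cell cannot be told apart. Markers of several cell types moved with LPS. For comparison, 6.65% of all genes rose and 5.18% fell in mice labelled Abca7, and 9.39% rose and 7.92% fell in controls. Of 8 microglial markers, 7 fell and C1qa rose in mice labelled Abca7, and 7 fell in controls; their summed level was 186 to 215 CPM in LPS mice labelled Abca7, 183 to 202 CPM in LPS controls, 254 to 273 CPM in unstimulated mice labelled Abca7 and 251 to 268 CPM in unstimulated controls. All 7 endothelial markers fell with both labels, with summed levels of 166 to 206, 169 to 190, 235 to 278 and 236 to 267 CPM in the same order of groups. Of 7 monocyte markers, 2 rose and 1 fell in mice labelled Abca7 and 3 rose and 1 fell in controls, with sums of 8.40 to 13, 8.51 to 13.4, 10.4 to 13.1 and 9.22 to 13.4 CPM. Of 8 neutrophil markers, 3 had enough counts to test; S100a8 and S100a9 rose with both labels and Csf3r fell in controls, while Ly6g had no count in either control group. The sums of the neutrophil markers were 5.47 to 6.71, 5.39 to 7.96, 4.88 to 6.28 and 5.66 to 7.02 CPM, so they overlapped between all 4 groups. Of 7 astrocyte markers, 2 rose in mice labelled Abca7 and 4 in controls; of 6 pericyte markers, 1 fell and 3 fell; and 2 of 4 markers of oligodendrocyte precursors, 1 of 6 of oligodendrocytes, 1 of 6 of thalamus and 5 of 8 of choroid plexus rose in controls, against 0 of each in mice labelled Abca7. Of 8 lymphocyte markers 2 had enough counts to test, and of 5 muscle markers 4. No lymphocyte, neuronal or muscle marker that was tested was called. The part of these cell types in the TRIM changes was not tested.

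The largest responses came from the Trim30 genes, mouse antiviral-type TRIM genes that lie side by side on chromosome 7. Trim30a (ENSMUSG00000030921, 7:104409025-104465193), which in mice restrains signalling from Toll-like receptors to NF-kB, had 20.5 to 30.1 CPM (median 28.0) in LPS mice labelled Abca7 against 1.97 to 3.60 CPM (median 2.15) in unstimulated ones. In controls it had 25.1 to 38.2 CPM (median 30.6) under LPS against 2.01 to 2.65 CPM (median 2.37) without. No LPS library came near the unstimulated range. The log2 fold change was 3.47 ± 0.13 in mice labelled Abca7 (SE, n = 6 per group; edgeR quasi-likelihood, adjusted p = 1.54e-16) and 3.70 ± 0.13 in controls (adjusted p = 2.72e-17), the smallest adjusted p of the family in both comparisons.

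Trim30d (7:104470014-104507849), the neighbour of Trim30a, had 3.88 to 8.05 CPM (median 6.68) in LPS mice labelled Abca7 against 0.934 to 1.71 CPM (median 1.14) in unstimulated ones. Control mice had 6.01 to 11.3 CPM (median 8.57) under LPS against 0.868 to 1.63 CPM (median 1.26) without. Its groups did not overlap, and it rose by 2.42 ± 0.19 in mice labelled Abca7 (log2; adjusted p = 1.06e-10) and by 2.74 ± 0.18 in controls (adjusted p = 4.59e-12). Trim30a and Trim30d share 5.98% and 7.49% of their 50-base sequences with transcripts of other genes.

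Trim30b and Trim30c were close to silent without LPS. Trim30b (7:104355382-104369884) had 0.883 to 1.99 CPM (median 1.85) in LPS mice labelled Abca7 against 0 to 0.219 CPM (median 0.129) in unstimulated ones, and 1.67 to 2.62 CPM (median 1.91) in LPS controls against 0.0355 to 0.255 CPM (median 0.166) in unstimulated ones. Trim30c (7:104382065-104390586) had 0.647 to 2.67 CPM (median 1.66) against 0.0166 to 0.126 CPM (median 0.0776) with the Abca7 label, and 1.66 to 3.08 CPM (median 1.97) against 0 to 0.129 CPM (median 0.0474) in controls. In counts, the unstimulated libraries held 0 to 16 reads of Trim30b and 0 to 8 reads of Trim30c. The log2 fold changes were 3.67 ± 0.34 with the Abca7 label and 3.78 ± 0.33 in controls for Trim30b (adjusted p = 4.81e-09 and 8.51e-10), and 4.48 ± 0.37 and 5.22 ± 0.38 for Trim30c (adjusted p = 5.42e-10 and 2.88e-11). Both folds rest on very small unstimulated counts and depend on the prior count of the fit.

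**Figure D2:**
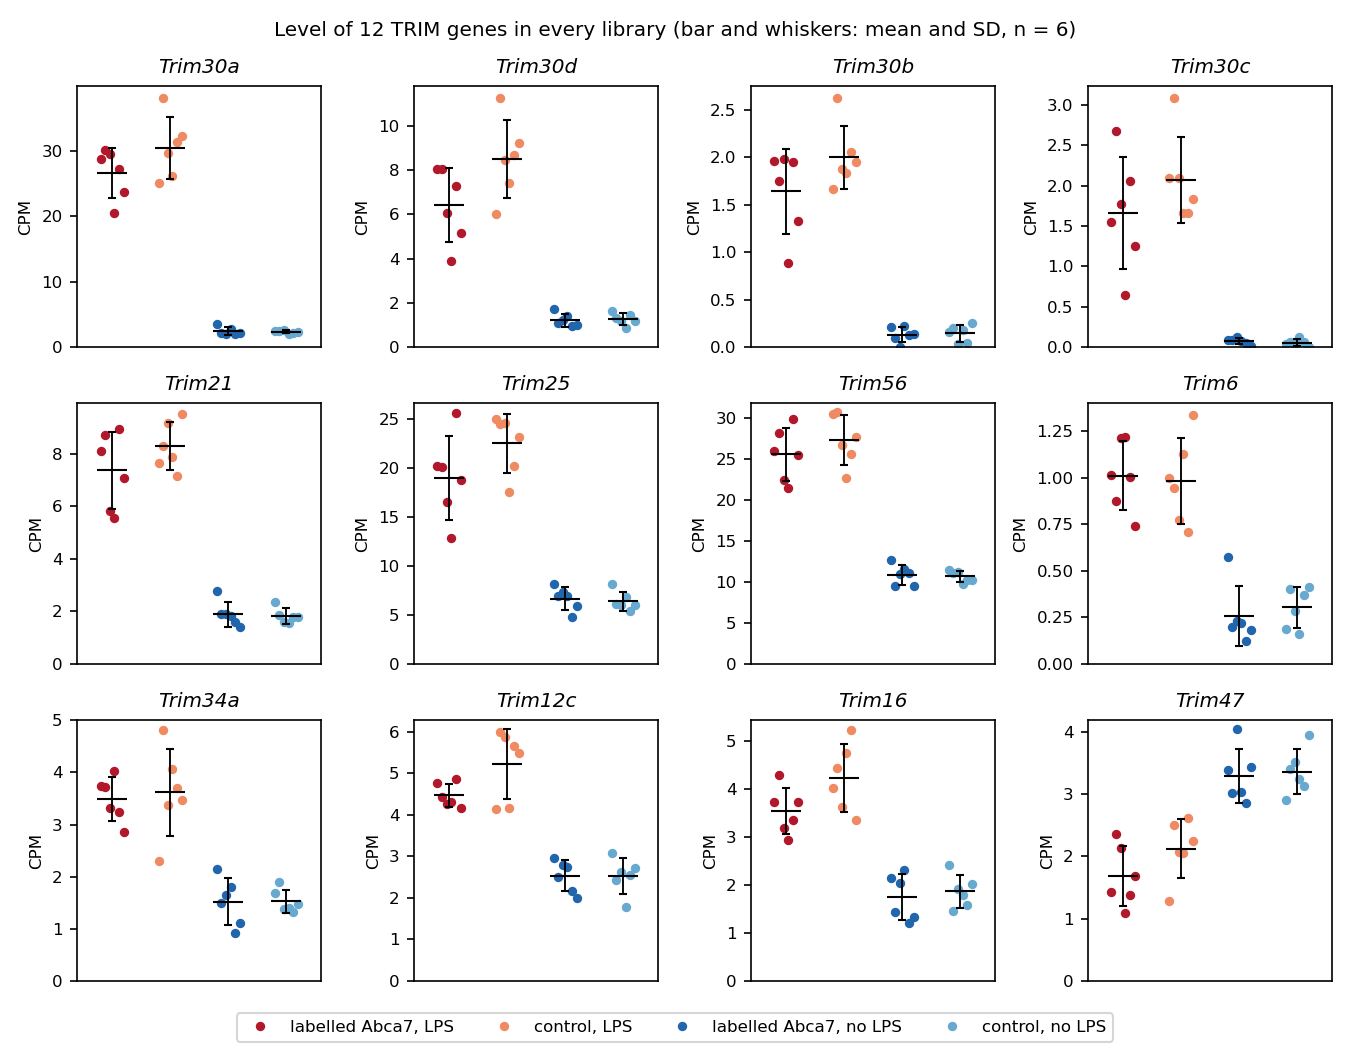
Level in CPM of 12 TRIM genes in each of the 24 libraries, with 1 point per mouse and the mean and SD of each group of 6. LPS groups stand left of the unstimulated ones: 11 genes lie higher under LPS, such as Trim30a at 20.5 to 38.2 CPM against 1.97 to 3.60 CPM, and Trim47 lies lower.

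The Trim30 genes end a run of 10 TRIM genes on chromosome 7, from Trim6 to Trim30d (7:104218793-104507849, 289 kb), which holds 16 genes of the table. The run was drawn with the values known and is described only. Of its 10 members, 9 rose with both labels, with median log2 fold changes of 1.61 in mice labelled Abca7 and 1.47 in controls. Of the 48 members elsewhere, 6 rose and 5 fell in mice labelled Abca7, and 5 rose and 7 fell in controls. The shares of all genes tested were 6.65% higher and 5.18% lower in mice labelled Abca7, and 9.39% higher and 7.92% lower in controls. In controls the rises elsewhere were near that share. Without Trim30b and Trim30c, 7 of 8 rose with each label, with medians of 1.08 in mice labelled Abca7 and 1.15 in controls. The summed level of the run was 42.7 to 60.1 CPM in LPS mice labelled Abca7, 50.1 to 74.8 CPM in LPS controls, 11.3 to 19.2 CPM in unstimulated mice labelled Abca7 and 11.6 to 14.7 CPM in unstimulated controls. Trim30a made up 50.3% and 49.9% of that sum in the LPS mice labelled Abca7 and LPS controls, and 17.6% in each unstimulated group.

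The remaining members of the run belong to the neighbourhood of mouse Trim5, counterpart of the human retroviral restriction factor TRIM5. Trim6 (7:104218793-104235152), whose human counterpart acts in interferon signalling, had 0.741 to 1.22 CPM (median 1.01) in LPS mice labelled Abca7 against 0.126 to 0.576 CPM (median 0.208) in unstimulated ones. In controls it had 0.709 to 1.34 CPM (median 0.972) under LPS against 0.161 to 0.415 CPM (median 0.327) without. It rose by 2.02 ± 0.27 (log2; adjusted p = 3.26e-06) and by 1.68 ± 0.26 (adjusted p = 2.04e-05), with no overlap between the groups.

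Trim34a (7:104244457-104340693) had 2.86 to 4.02 CPM (median 3.53) in LPS mice labelled Abca7 against 0.917 to 2.14 CPM (median 1.57) in unstimulated ones, and 2.29 to 4.81 CPM (median 3.59) in LPS controls against 1.33 to 1.89 CPM (median 1.43) in unstimulated ones. It rose by 1.21 ± 0.17 (log2; adjusted p = 4.34e-06) and 1.25 ± 0.17 (adjusted p = 1.54e-06). Trim34b (7:104300230-104336909) had 0.706 to 0.995 CPM (median 0.942) in LPS mice labelled Abca7 against 0.198 to 0.830 CPM (median 0.429) in unstimulated ones, and 0.703 to 1.14 CPM (median 1.01) in LPS controls against 0.319 to 0.586 CPM (median 0.470) in unstimulated ones. Its groups overlapped with the Abca7 label and not in controls, and it rose by 0.95 ± 0.23 (adjusted p = 0.00448) and 1.02 ± 0.22 (adjusted p = 0.00131). The pair cannot be told apart with confidence: 59.7% of the 50-base sequences of Trim34a occur in other genes, Trim34b above all, and 56.8% of those of Trim34b occur in others, Trim34a above all. The deposited interval of Trim34a also spans Trim5, Trim12a and Trim34b, which it does not in the annotation GENCODE M21.

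Trim12c (7:104338754-104353362) had 4.17 to 4.87 CPM (median 4.37) in LPS mice labelled Abca7 against 2.01 to 2.97 CPM (median 2.63) in unstimulated ones, and 4.15 to 6.01 CPM (median 5.58) in LPS controls against 1.78 to 3.08 CPM (median 2.59) in unstimulated ones. It rose by 0.82 ± 0.12 (log2; adjusted p = 8.73e-06) and 1.04 ± 0.12 (adjusted p = 1.09e-07), without overlap. Trim12a (7:104299894-104315466) rose less, by 0.44 ± 0.10 (adjusted p = 0.00169) and 0.69 ± 0.09 (adjusted p = 3.05e-06), at 5.10 to 6.80 CPM (median 5.91) against 3.88 to 5.99 CPM (median 4.16) with the Abca7 label and 6.03 to 7.16 CPM (median 6.21) against 3.46 to 4.47 CPM (median 3.99) in controls. Its groups overlapped with the Abca7 label and not in controls.

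Trim5 (7:104263386-104288094) was the 1 member of the run with no call. It had 0.577 to 0.891 CPM (median 0.675) in LPS mice labelled Abca7 against 0.427 to 1.04 CPM (median 0.752) in unstimulated ones, and 0.659 to 1.03 CPM (median 0.876) in LPS controls against 0.519 to 0.925 CPM (median 0.807) in unstimulated ones. The groups overlapped almost wholly, with log2 fold changes of -0.085 ± 0.19 (adjusted p = 0.851) and 0.17 ± 0.19 (adjusted p = 0.602). Of its 50-base sequences, 36.6% occur in other genes, Trim12c above all, and the same holds for 33.7% of those of Trim12c and 10.5% of those of Trim12a, so counts of the Trim5 and Trim12 genes are uncertain where the counting could split shared reads.

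**Figure D3:**
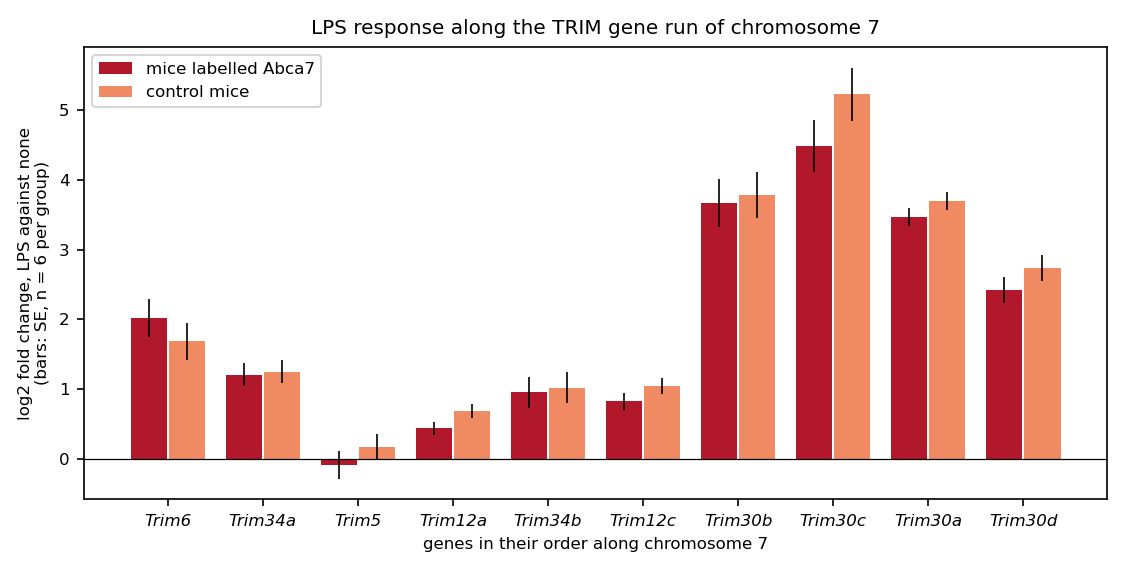
Log2 fold change of LPS against no LPS, with bars of 1 SE (n = 6 per group), for the 10 TRIM genes of the chromosome 7 run in their order along the chromosome, with mice labelled Abca7 left of controls in each pair of bars. The 4 Trim30 genes at the right end stand between 2.42 and 5.22, Trim6 to Trim12c between 0.44 and 2.02 apart from Trim5, and Trim5 at -0.085 and 0.17.

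Promoter windows were compared because the run's members rose together and Trim5 did not. Windows of 300 bases, 250 before and 50 from the annotated start on, came from RefSeq on GRCm38.p6, the same assembly as mm10, and matched 45 of 58 members. They were searched for the core of the interferon-stimulated response element, the element bound by interferon-activated STAT complexes and by IRF factors, written as GAAA, any 2 bases and GAAA again, and searched on both strands. The core lay in windows of 9 of the 45 members: 7 of the 13 with a window that rose with either label, 0 of the 5 that fell, and 2 of the 27 others. By comparison 3.99% of 27025 genes and 3.44% of 32851 windows held it. The windows of Trim30a and Trim30d are 93.9% identical over aligned bases, those of Trim12c and Trim12a 95.0%, and those of Trim12a and Trim5 do not differ over 241 bases, so these matches are not separate events. Stretches of 80 bases around the core are printed in the direction of each gene, with the core in capitals, for the members whose windows held it apart from Trim2:
Trim30a, chr7:104465185-104465264, minus strand: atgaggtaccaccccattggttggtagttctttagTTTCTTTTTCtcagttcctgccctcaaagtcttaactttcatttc
Trim30d, chr7:104507846-104507925, minus strand: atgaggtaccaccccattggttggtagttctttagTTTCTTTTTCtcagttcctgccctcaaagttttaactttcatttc
Trim12c, chr7:104353334-104353413, minus strand: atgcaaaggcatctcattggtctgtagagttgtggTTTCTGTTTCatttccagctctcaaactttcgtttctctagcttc
Trim12a, chr7:104315446-104315525, minus strand: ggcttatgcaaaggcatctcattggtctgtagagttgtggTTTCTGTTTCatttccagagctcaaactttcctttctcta
Trim5, chr7:104288111-104288190, minus strand: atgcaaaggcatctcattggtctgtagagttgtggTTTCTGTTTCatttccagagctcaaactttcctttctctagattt
Trim34a, chr7:104244427-104244506, plus strand: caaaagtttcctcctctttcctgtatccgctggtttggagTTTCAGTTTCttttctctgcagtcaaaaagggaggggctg
Trim21, chr7:102565433-102565512, minus strand: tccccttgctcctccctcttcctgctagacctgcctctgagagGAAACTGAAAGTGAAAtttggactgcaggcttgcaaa
Trim26, chr17:36836951-36837030, plus strand: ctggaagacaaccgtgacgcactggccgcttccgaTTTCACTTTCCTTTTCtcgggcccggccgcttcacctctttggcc

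In Trim21 and Trim26 the capitals cover a pair of overlapping cores. Trim21 carries the core on the strand of the gene and the other 7 carry it on the opposite strand. The core starts at -36 in Trim30a, -41 in Trim30d, -29 in Trim12c, -49 in Trim5, +10 in Trim12a and Trim34a and +13 in Trim21, counted from the annotated start as base 0. The Trim12a and Trim5 stretches hold the same core in the same surroundings, while Trim12a rose with both labels and Trim5 was not called. A longer form, the core followed by CT, was in windows of 3 members, Trim30a, Trim30d and Trim34a. It was in 0.303% of all genes and 0.271% of all windows. Windows of Trim30b, Trim30c, Trim34b, Trim6, Trim25 and Trim56, all of which rose, held no core. The RefSeq start of Trim30c lies outside the interval deposited for that gene. Those of Trim30b and of Trim47, which fell, lie inside their deposited intervals, away from the ends. In 50 of 59 member windows, the bases after the start occur in a GENCODE M21 transcript of the same gene. A STAT dimer site, TTCNNNGAA (a palindrome), was in windows of 4 of 45 members, beside 9.55% of all genes and 8.30% of all windows.

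**Figure D4:**
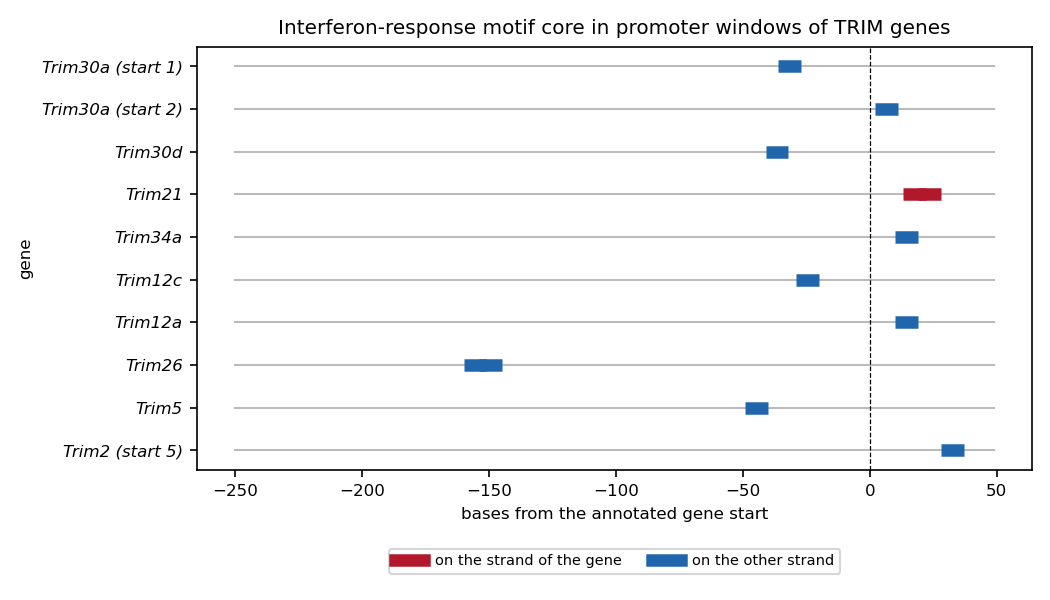
Position of the core of the interferon-stimulated response element, in bases from the annotated start (dashed line, base 0), in the RefSeq promoter windows of the 9 TRIM genes that held it (Trim30a has a pair of annotated starts); grey lines are the windows searched, red marks the strand of the gene and blue the opposite strand. Most cores lie within 50 bases of the start, and those of Trim26 lie at -160 and -154.

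Outside the run, the members that rose most act in sensing of nucleic acids and of antibody-coated particles. Trim21 (7:102557922-102565469), a cytosolic receptor for antibodies that sends bound virus to the proteasome, had 5.53 to 8.93 CPM (median 7.58) in LPS mice labelled Abca7 against 1.39 to 2.77 CPM (median 1.86) in unstimulated ones. Control mice had 7.14 to 9.51 CPM (median 8.09) under LPS against 1.56 to 2.37 CPM (median 1.78) without. The groups lay well apart, with rises of 1.97 ± 0.14 (log2; adjusted p = 2.77e-11) and 2.18 ± 0.14 (adjusted p = 2.15e-12).

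Trim25 (11:88999376-89020293), the ligase that modifies the RNA sensor RIG-I, had 12.8 to 25.6 CPM (median 19.4) in LPS mice labelled Abca7 against 4.80 to 8.18 CPM (median 6.92) in unstimulated ones. In controls it had 17.5 to 24.9 CPM (median 23.9) under LPS against 5.43 to 8.19 CPM (median 6.06) without. It rose by 1.51 ± 0.14 (log2; adjusted p = 1.90e-09) and 1.81 ± 0.14 (adjusted p = 4.13e-11), and no libraries overlapped. Trim56 (5:137105644-137116209), a RING ligase linked to the DNA-sensing cGAS and STING pathway, had 21.4 to 29.9 CPM (median 25.8) against 9.54 to 12.7 CPM (median 11.04) with the Abca7 label and 22.6 to 30.8 CPM (median 27.2) against 9.80 to 11.5 CPM (median 10.7) in controls. Its rises were 1.23 ± 0.08 (adjusted p = 9.62e-12) and 1.36 ± 0.08 (adjusted p = 9.07e-13), again without overlap.

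Trim16 (11:62820231-62850808), which lacks a RING finger and whose human counterpart helps clear damaged lysosomes, had 2.94 to 4.28 CPM (median 3.53) in LPS mice labelled Abca7 against 1.20 to 2.32 CPM (median 1.74) in unstimulated ones. Control mice had 3.35 to 5.23 CPM (median 4.23) under LPS against 1.45 to 2.42 CPM (median 1.85) without. It rose by 1.03 ± 0.15 (log2; adjusted p = 1.61e-05) and 1.18 ± 0.15 (adjusted p = 9.31e-07) without overlap, though its exons overlap those of Fbxw10 on the same strand. Trim26, a PRY-SPRY gene of the MHC region on chromosome 17, rose by 0.36 ± 0.06 (adjusted p = 5.01e-05) and 0.44 ± 0.06 (adjusted p = 2.22e-06), with every LPS library above every unstimulated one.

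Trim14 (4:46493781-46536141), whose human counterpart is an adaptor of the mitochondrial antiviral protein MAVS, had 0.780 to 1.27 CPM (median 0.898) in LPS mice labelled Abca7 against 0.265 to 0.737 CPM (median 0.561) in unstimulated ones. In controls it had 0.678 to 1.21 CPM (median 0.822) under LPS against 0.546 to 0.824 CPM (median 0.698) without. The groups were apart with the Abca7 label, where it rose by 0.80 ± 0.20 (log2; adjusted p = 0.00801), and overlapped in controls, where the change was 0.36 ± 0.20 (adjusted p = 0.232). The difference between the labels, 0.43 ± 0.28, was not called (interaction, adjusted p = 1). Of its 50-base sequences, 33.9% occur in other genes, above all in Nans, whose exons overlap it on the opposite strand.

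The largest called fall, -1.45 for Trim63 in controls, was smaller in size than the rises of the Trim30 genes. The number of falls was less stable than that of rises. With the Abca7 label the 5 falls became 2 without LPS replicate 3 or 5 of that label, 3 without LPS replicate 1 or 2 or unstimulated replicate 2, 4 or 6 of that label, and 0 with surrogate variables in the model; in controls the 7 falls became 2 with surrogate variables. Trim47 (11:116105752-116127210) had 1.10 to 2.36 CPM (median 1.56) in LPS mice labelled Abca7 against 2.86 to 4.04 CPM (median 3.21) in unstimulated ones, and 1.28 to 2.61 CPM (median 2.16) in LPS controls against 2.91 to 3.94 CPM (median 3.32) in unstimulated ones. No libraries overlapped, and the log2 fold changes were -0.97 ± 0.16 (adjusted p = 5.49e-05) and -0.66 ± 0.15 (adjusted p = 0.00291). The control call ended with the level of the choroid plexus gene Ttr in the model (adjusted p = 0.174), and both ended with surrogate variables (adjusted p = 0.0731 with the Abca7 label and 0.277 in controls). Trim47 overlaps exons of Trim65 on the same strand. Trim65, which in mouse and human cells modifies the RNA sensor MDA5, fell in controls by 0.34 on the log2 scale (adjusted p = 0.00241); with the Abca7 label its change was -0.22 ± 0.08 (adjusted p = 0.0709), and it was called there without control LPS replicate 1 (adjusted p = 0.0406) or unstimulated control replicate 1 (0.0465), and with DESeq2 (0.0455), age in the model (0.0349) or the 12 libraries of the contrast alone (0.048).

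Trim59 (3:69035288-69044755), a transmembrane member, had 6.25 to 11.5 CPM (median 8.04) in LPS mice labelled Abca7 against 8.47 to 14.4 CPM (median 10.8) in unstimulated ones, and 6.33 to 9.01 CPM (median 7.74) in LPS controls against 9.35 to 13.9 CPM (median 11.2) in unstimulated ones. It fell with both labels, by 0.42 ± 0.14 (SE, log2; adjusted p = 0.0487) and by 0.55 ± 0.14 (adjusted p = 0.00611), and its groups overlapped with the Abca7 label alone. The call with the Abca7 label ended without any 1 of 15 libraries (adjusted p from 0.0503 to 0.138): replicates 1, 2, 3, 5 and 6 of the LPS mice labelled Abca7, 2 to 6 of the LPS controls, 1, 3 and 4 of the unstimulated mice labelled Abca7, and 2 and 6 of the unstimulated controls.

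Trim63 (4:134315120-134329629), a muscle ubiquitin ligase of the COS-box type, was near the limit of detection and passed the filter through unstimulated libraries alone, with 0 to 9 counts in LPS libraries and 2 to 20 counts in unstimulated ones. It had 0 to 0.157 CPM (median 0.0544) in LPS mice labelled Abca7 against 0.0359 to 0.329 CPM (median 0.159) in unstimulated ones, and 0.0302 to 0.160 CPM (median 0.0570) in LPS controls against 0.0888 to 0.319 CPM (median 0.237) in unstimulated ones. The groups overlapped with both labels; the fall in controls was -1.45 ± 0.51 (log2; adjusted p = 0.0479) and the change with the Abca7 label -1.40 ± 0.54 (adjusted p = 0.0999). The control call ended without any 1 of 16 libraries (adjusted p from 0.0504 to 0.114): replicates 1, 2, 5 and 6 of the LPS mice labelled Abca7, 1, 3, 4 and 5 of the LPS controls, 1, 3, 4 and 6 of the unstimulated mice labelled Abca7, and 1, 2, 3 and 6 of the unstimulated controls. With the Abca7 label it was called without LPS replicate 4 (adjusted p = 0.0339) or unstimulated replicate 5 (0.0442) of that label. Of 5 skeletal muscle markers, 4 could be tested and none was called.

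The 3 other members that fell with both labels are abundant. Trim8 had 42.8 to 52.0 CPM in LPS mice labelled Abca7 against 49.9 to 63.5 CPM in unstimulated ones, and 44.7 to 48.8 CPM in LPS controls against 53.2 to 59.9 CPM in unstimulated ones, with log2 fold changes of -0.22 ± 0.05 (adjusted p = 0.00606) and -0.25 ± 0.05 (adjusted p = 0.000903). Trim9, a brain-enriched ligase of axon guidance, and Trim46, which bundles microtubules at the start of the axon, are both of the COS-box type with a fibronectin and a PRY-SPRY domain. Trim9 changed by -0.15 ± 0.04 (adjusted p = 0.0253) and -0.18 ± 0.04 (adjusted p = 0.00454), and Trim46 by -0.13 ± 0.04 (adjusted p = 0.0369) and -0.15 ± 0.04 (adjusted p = 0.00868). Their calls with the Abca7 label ended without any 1 of 4 libraries for Trim9 (LPS replicates 3 and 5 and unstimulated replicates 2 and 6 of that label; adjusted p from 0.0626 to 0.0717) and of 8 for Trim46 (LPS replicates 1 to 5 and unstimulated replicates 2, 4 and 6 of that label; 0.0551 to 0.0917). Of 7 neuronal markers, none was called with either label.

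Among the 36 members with no call were whole classes, and those described here have 4 members each. Of all genes tested, 11.8% were called either way with the Abca7 label and 17.3% in controls. The absence of a call among 4 members is near that share and is not read as a trait of a class. In the fit as reported, none of the 4 NHL-repeat members, Trim2, Trim3, Trim32 and Trim71, was called in either comparison, and neither was any of the 4 with a PHD finger and bromodomain: Trim24, Trim28 and Trim33, corepressors of transcription, and Trim66. The log2 fold changes of these 8 lay between -0.082 and 0.069 with the Abca7 label and between -0.37 and 0.069 in controls. Classes were assigned by gene name and not checked against protein sequences. Of the 32 members placed in the class with a RING finger, B-box, coiled coil and PRY-SPRY domain, 12 rose with each label. Of these 32, 1 fell with the Abca7 label and 2 in controls. Among all genes tested, 6.65% rose and 5.18% fell with the Abca7 label, and 9.39% rose and 7.92% fell in controls. Of the 12, 9 lie in the chromosome 7 run, including Trim30b and Trim30c, which passed the limit through LPS libraries alone. Of the 22 outside the run, 3 rose. Trim23, a ligase with a GTPase domain, had a log2 fold change of 0.11 with the Abca7 label (adjusted p = 0.0585) and was called there without LPS replicate 6, unstimulated replicate 2 or unstimulated replicate 5 of that label (adjusted p from 0.0249 to 0.0422). Trim33 was called there without LPS replicate 4 of that label (adjusted p = 0.0181), and Trim17 in controls without unstimulated control replicate 6 (adjusted p = 0.0289). Trim2 was called in controls with surrogate variables in the model (log2 fold change 0.14, adjusted p = 0.0434). With age in the model, Trim36 was called lower with both labels (adjusted p = 0.0126 in mice labelled Abca7 and 0.046 in controls) and Trim13 lower in controls (0.025).

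None of the 6 TRIM transcripts highest per kilobase in the cortex was called higher under LPS. The shares of all genes called higher were 6.65% with the Abca7 label and 9.39% in controls. Levels between genes are compared as CPM per kilobase of the deposited gene length. The 6 highest in unstimulated controls are given in LPS mice labelled Abca7, LPS controls, unstimulated mice labelled Abca7 and unstimulated controls, in that order (mean ± SD, n = 6 each). Trim44, a member without a RING finger, stood at 56.7 ± 2.1, 58.3 ± 2.2, 57.0 ± 2.2 and 59.3 ± 2.4 CPM per kilobase. Trim37, a ligase of centrosomes and peroxisomes, stood at 55.2 ± 2.0, 56.4 ± 2.1, 55.1 ± 1.5 and 58.9 ± 2.2. Trim32, a ligase with NHL repeats, stood at 49.4 ± 1.5, 49.5 ± 2.0, 49.8 ± 2.8 and 50.3 ± 1.4. None of these 3 was called in any comparison. Trim9 stood at 35.2 ± 1.6, 34.6 ± 1.3, 39.0 ± 2.0 and 39.2 ± 3.0, and was called lower under LPS with both labels. Trim35 stood at 37.4 ± 2.4, 37.9 ± 1.7, 36.4 ± 0.9 and 35.7 ± 0.8, and Trim28, the corepressor that silences retroelements, at 22.9 ± 0.6, 22.9 ± 0.2, 23.3 ± 1.1 and 23.8 ± 0.8. In unstimulated controls Trim44 and Trim37 did not differ beyond their spread, and Trim9 lay above Trim35 by little more than its own SD. Divided by the longest transcript of GENCODE M21 in place of the deposited length, Trim37 stood at 75.4 and Trim9 at 60.5. The order, and which members are the 6 highest, therefore depend on the length used. Trim2, with a median of 314 CPM in unstimulated controls, has a deposited length of 18113 bases, against 7428 for its longest transcript. These 6 made up 58.0% and 58.1% of the summed level of the family in LPS mice labelled Abca7 and LPS controls, and 60.1% and 60.9% in unstimulated mice labelled Abca7 and unstimulated controls. Of the 6, Trim9 was the one called, beside 11.8% of all genes called either way with the Abca7 label and 17.3% in controls.

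By level in unstimulated controls, 12 members had at least 10 CPM per kilobase, of which 0 rose and 3 fell with each label. Of 18 members between 1 and 10, 3 rose with each label, and 2 fell with the Abca7 label and 3 in controls. Of 28 members under 1, 12 rose and 0 fell with the Abca7 label, and 11 rose and 1 fell in controls. These include the rises of Trim30b and Trim30c and the control fall of Trim63, members that passed the limit on 1 side alone. Over genes of every level, 6.65% rose and 5.18% fell with the Abca7 label, and 9.39% rose and 7.92% fell in controls. Those shares are not split by level. The level that sets the bands also enters the fold change in controls, so the bands are described only. Trim30a ranked 15 of 58 in LPS controls, at 6.90 CPM per kilobase, and 35 of 58 in unstimulated controls, at 0.532 CPM per kilobase. The summed level of all 58 members was 431 to 452 CPM per kilobase in LPS mice labelled Abca7, 433 to 458 in LPS controls, 425 to 440 in unstimulated mice labelled Abca7 and 433 to 452 in unstimulated controls, so the sums of the 4 groups overlapped.

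**Figure D5:**
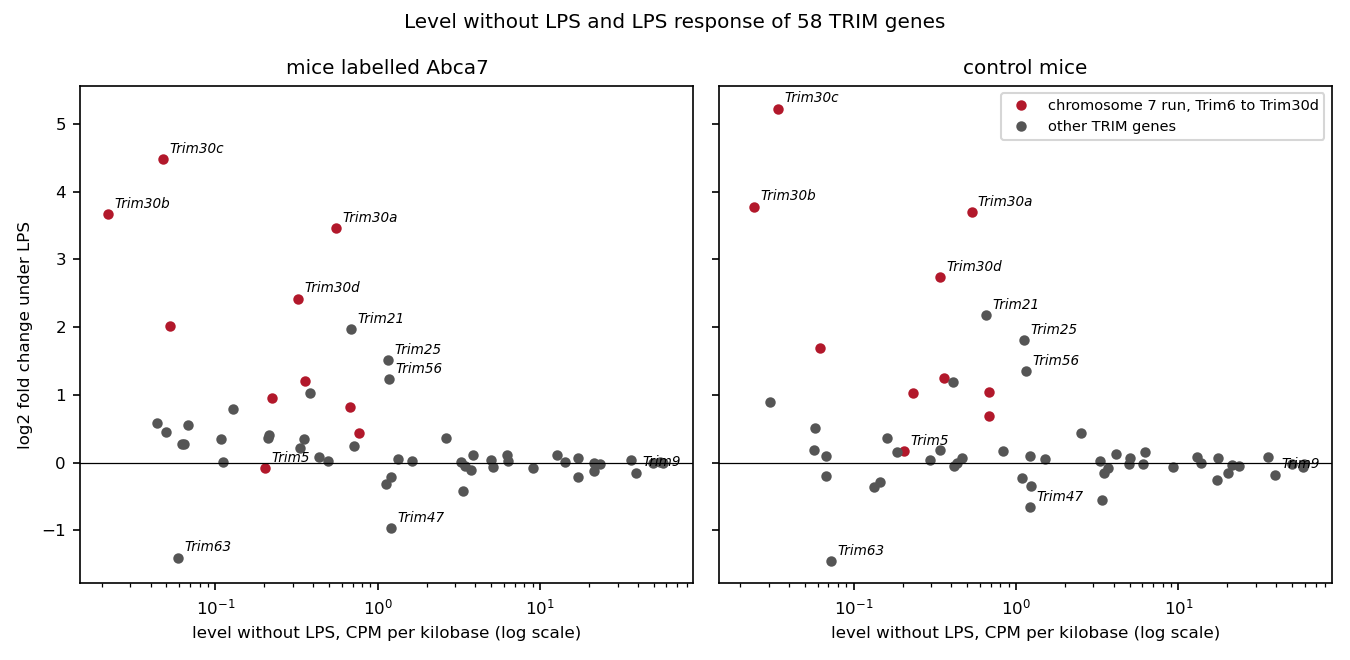
Log2 fold change of LPS against no LPS plotted against the level without LPS (CPM per kilobase, log axis) for 58 TRIM genes, 1 point per gene, in mice labelled Abca7 and in control mice; the level on the x axis also enters the fold change. Members above 10 CPM per kilobase lie close to 0, and the Trim30 genes lie below 1 CPM per kilobase and above 2 on the log2 scale.

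No member was called between the labels. Under LPS, mice labelled Abca7 against controls gave 0 calls among 58 members, with 0% of all genes called; without LPS they gave 0 calls, with 0.032% of all genes called (0.0137% higher, 0.0183% lower); and the interaction, the LPS effect with the Abca7 label minus that in controls, gave 0 calls, with 0% of all genes called. DESeq2 also called 0 in each. At an unadjusted p under 0.05, edgeR and DESeq2 both counted 5 members under LPS, 2 without LPS and 0 in the interaction; for edgeR these were Trim30d, Trim41, Trim11, Trim46 and Trim47 under LPS, and Trim37 and Trim46 without. The background at that unadjusted level was 7.99%, 6.51% and 3.40% of all genes. Trim46 had 71.3 to 82.9 CPM (median 73.8) in LPS mice labelled Abca7 and 63.6 to 75.3 CPM (median 69.4) in LPS controls, and 79.9 to 85.3 CPM (median 80.9) in unstimulated mice labelled Abca7 and 71.2 to 79.8 CPM (median 76.9) in unstimulated controls. The unstimulated labels did not overlap, by a narrow margin, for Trim46 alone among the 58 members. The share of all genes without overlap was not counted for this comparison, so nothing is drawn from that separation. The differences of Trim46 were 0.12 ± 0.04 under LPS (log2, adjusted p = 0.379) and 0.10 ± 0.04 without (adjusted p = 0.646). Exons of Trim46 overlap Krtcap2 on the opposite strand.

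The sizes of the LPS effects with the 2 labels are set side by side next, and none of the differences was called. Of the 14 members higher with both labels, 13 had the smaller log2 fold change in mice labelled Abca7, with a median interaction of -0.18, and Trim6 had the larger one. That count varied with the libraries used, from 10 to 13 with each library left out in turn. Without LPS replicate 4 of the mice labelled Abca7 it was 12 and the median -0.12, without LPS control replicate 2 it was 12 and -0.15, and without unstimulated replicate 1 of the mice labelled Abca7 it was 10 and -0.087. Without all 3, chosen after seeing the data, 8 of 14 were smaller and the median was -0.0054. With Ttr level in the model 11 were smaller (median -0.085), with age in the model 10 (median -0.092), and with surrogate variables 12 (median -0.12). Without unstimulated replicate 4 of the mice labelled Abca7 alone, 11 were smaller (median -0.18). These members move together within a library and are not separate observations. For Trim30a the interaction was -0.23, and 2 SE on either side reach from -0.59 to 0.12; for Trim21 it was -0.21 (-0.60 to 0.19), for Trim25 -0.29 (-0.67 to 0.09) and for Trim56 -0.12 (-0.36 to 0.11). Each of these intervals includes 0.

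The groups were not matched for age, so the run's summed level was also read at 1 age. At 55 days it averaged 51.1 CPM in 2 LPS mice labelled Abca7 and 57.0 CPM in 2 LPS controls, against 12.8 CPM in 3 unstimulated mice labelled Abca7 and 13.2 CPM in 2 unstimulated controls. At 56 days it was 58.7 CPM in 2 LPS mice labelled Abca7 and 63.8 CPM in 3 LPS controls, against 14.1 CPM in 1 unstimulated mouse labelled Abca7 and 14.1 CPM in 3 unstimulated controls. The LPS difference had the same direction at both ages. The choroid plexus gene Ttr, a sign of choroid tissue in a cortical sample, was at 24.3 to 381 CPM (median 265) in LPS mice labelled Abca7 and at 165 to 485 CPM (median 250) in LPS controls, against 48.0 to 449 CPM (median 392) in unstimulated mice labelled Abca7 and 4.94 to 261 CPM (median 12.8) in unstimulated controls, 5 of which were at 19.7 CPM or less. All 8 choroid plexus markers had positive log2 differences between unstimulated mice labelled Abca7 and unstimulated controls (median 1.37, 6 at an unadjusted p under 0.05, 0 called), and their median interaction was -1.63 (6 at an unadjusted p under 0.05, 0 called). Their part in the TRIM differences between labels was not tested beyond the fit with Ttr. With its level in the model, 14 members rose and 3 fell in controls, and the falls of Trim9, Trim46, Trim47 and Trim63 were no longer called there.

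Genes that work with the TRIM proteins were read from lists chosen for this family. Of 5 TRIM proteins under other symbols, 4 had enough counts. Pml, which forms nuclear bodies, averaged 25.3 CPM in LPS mice labelled Abca7 and 27.6 CPM in LPS controls, against 13.7 CPM in unstimulated mice labelled Abca7 and 13.4 CPM in unstimulated controls, and rose by 0.89 ± 0.08 (adjusted p = 6.61e-10) and 1.05 ± 0.08 (adjusted p = 1.97e-11). Mid1, a microtubule-binding ligase, rose with the Abca7 label (0.74 ± 0.23, adjusted p = 0.0304) and was at 0.53 ± 0.22 in controls (adjusted p = 0.112), and its relative Mid2 rose in controls (0.21 ± 0.05, adjusted p = 0.0039) and was at 0.14 ± 0.05 with the Abca7 label (adjusted p = 0.0761). Neither difference between labels was called (interaction, adjusted p = 1 for each).

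Of 18 genes of RNA and DNA sensing with TRIM partners, 10 rose and Traf3 fell with each label, with median log2 fold changes of 0.65 in mice labelled Abca7 and 0.64 in controls. Beside these counts, 6.65% of all genes rose and 5.18% fell with the Abca7 label, and 9.39% rose and 7.92% fell in controls. RIG-I (Ddx58), the sensor that Trim25 modifies, rose by 2.21 ± 0.12 and 2.44 ± 0.12 in mice labelled Abca7 and controls, MDA5 (Ifih1) by 2.77 ± 0.15 and 2.92 ± 0.14, the ubiquitin-like modifier Isg15 by 3.25 ± 0.18 and 3.50 ± 0.18, and the interferon factor Irf7 by 3.56 ± 0.17 and 4.10 ± 0.17; the largest adjusted p of these was 1.77e-13. The DNA sensor cGAS (Mb21d1) and the adaptor STING (Tmem173), linked to Trim56, rose as well, while the adaptor Mavs was at -0.19 and -0.15 with no call. Of 8 Fc receptor and proteasome partners of Trim21, 6 rose and 1, the neonatal Fc receptor gene Fcgrt, fell with each label: the immunoproteasome subunits Psmb8 and Psmb9 rose by 2.27 and 1.79 with the Abca7 label and by 2.53 and 2.20 in controls.

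Among the genes for interferon receptors and transcription factors, Irf1, Stat2 and Irf9 rose with both labels, and Tyk2 fell in controls. In controls Ifnar2, a chain of the interferon receptor, rose by 0.29 ± 0.06 (adjusted p = 0.000537) and the kinase gene Jak1 by 0.15 ± 0.04 (adjusted p = 0.0123); with the Abca7 label they were at 0.09 ± 0.06 (adjusted p = 0.365) and 0.09 ± 0.04 (adjusted p = 0.154). Irf1, a transcription factor of the interferon response, rose by 2.04 ± 0.20 with the Abca7 label and 2.45 ± 0.20 in controls. The partners of Trim28 and its relatives, 9 chromatin genes, changed by small amounts. Their log2 fold changes were -0.138 to 0.0684 with the Abca7 label and -0.215 to 0.0432 in controls. Of the 9, Setdb1 fell with the Abca7 label (-0.14 ± 0.04, adjusted p = 0.0282), where 5.18% of all genes fell. Setdb1, Smad4 and Cbx1 fell in controls (-0.21 ± 0.04, -0.15 ± 0.04 and -0.13 ± 0.04), where 7.92% of all genes fell. No gene of these lists was called between the labels or in the interaction.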

How the data were processed

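Per the labels' protocols, RNA was taken from cortex with TRIzol and cleaned on RNeasy columns with DNase. An Illumina HiSeq 4000 and the MAP-RSeq 2.1.1 workflow gave the counts, per the series design text. The aligner was STAR 2.5.2b and the build mm10, per the submitters' processing notes. The sources used here name no annotation release, strand setting or rule for reads with several matches, so reads of overlapping or near-identical genes cannot be divided with certainty. The authors deposited raw read counts per gene, with no normalization. Each library title carries its own number, taken as the animal. Replicate numbers only name libraries, in accession order, and give no pairs. The p-values measure the spread between these mice.

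Genes were kept with filterByExpr by group, scaled with TMM and fitted in edgeR 4.0.16 (R 4.3.3) with 1 coefficient per group over all 24 libraries. The 5 contrasts were tested with its quasi-likelihood F test, two-sided, with Benjamini-Hochberg adjustment over 21891 genes and a threshold of 0.05. SE is the absolute log2 fold change over the root of F. Levels are CPM with TMM factors; levels between genes are CPM divided by the deposited gene length in kilobases. Log2 CPM has a prior count of 2. Total counts were compared with an exact permutation test. Alternatives used DESeq2 1.42.0 (its size factors, and its test), no filter, age, Ttr level or 4 surrogate variables (sva 3.50.0) in the model, 12 libraries, and each library left out. The fit was tested on simulated data. Promoter windows came from RefSeq (GRCm38.p6), overlaps and shared 50-base sequences from GENCODE M21, in which 41 of 58 members have the deposited coordinates.

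Members and lists were chosen with earlier results of these data known. Given library by library are members called in an LPS comparison with a log2 fold change of at least 0.5 either way, or called between labels. Of the other members the 6 highest per kilobase are named, and of each other list the 4 called genes of largest change in controls, with RIG-I, Irf7 and Pml. Trim5, Trim26, Trim65, Trim8, Trim9, Trim46 and further named genes outside that rule were chosen after their values were seen. A result of 1 gene on these lists is not reported here.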

Additional observations from a re-analysis of the deposited data

Results flagged for a closer look

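Within groups of 6, a library was set apart where its gap to the nearest other library was too large a share of the range of the group by Dixon's test at the 95% level. The test was run on 76 groups and set apart 3, and chance gives about 1 in 20. Trim30b was at -4.881 log2 CPM in unstimulated Abca7 replicate 3, which had 0 counts of it, against -2.916 to -1.983 in the other 5. Trim14 was at -1.741 log2 CPM in unstimulated Abca7 replicate 6, against -0.8803 to -0.3756 in the other 5. Trim47 was at 0.3906 log2 CPM in LPS control replicate 1, against 1.061 to 1.401 in the other 5. Without the library named, Trim30b and Trim14 were still called higher with the Abca7 label and Trim47 lower in controls.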

How the results depend on the processing

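Every LPS change called in the fit as reported kept its direction under every alternative run. Directions of LPS changes without a call were not compared. The interaction of Trim30a, -0.235 in the fit as reported, was 0.032 without the 3 libraries that lay apart. With surrogate variables in the model, the members called under LPS in mice labelled Abca7 numbered 13 (13 higher, 0 lower), against 20 in the fit as reported; of the losses, Trim12a had an adjusted p of 0.218 and Trim34b of 0.161. The cause was not tested. In controls that setting gave 16 (14 higher, 2 lower), and Trim34b was lost there too (adjusted p = 0.105). With Ttr level in the model, controls gave 17. Under the other settings with all libraries or with the 12 of a contrast, the counts were 20 or 21 in mice labelled Abca7 and 20 to 23 in controls. With each library left out in turn, they ranged from 17 to 22 in mice labelled Abca7 and from 20 to 21 in controls, and were 0 in both label comparisons and in the interaction. Without the pair of libraries that lay apart in mice labelled Abca7, and also without LPS control replicate 2, alternatives chosen after seeing the data, they were 19 (15 higher, 4 lower) in mice labelled Abca7 and 21 in controls. The label comparisons and the interaction gave 0 called members under every alternative that was run; DESeq2 gave no adjusted p for 16 members under LPS and 1 without. No paired analysis was possible because the labels give no replicate numbers. Members with few counts, such as Trim63, Trim30b and Trim30c, are limited by depth.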
